A study of Homo sapiens with 6 samples.

Results

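Mitosis is run by a set of kinases, motors and structural proteins whose messenger RNAs accumulate in G2 phase and are lost again after division. The genes described here are 54 of that programme: mitotic kinases and cyclins, the chromosomal passenger complex, the spindle checkpoint, the outer kinetochore, regulators of anaphase, kinesins, spindle and cytokinesis proteins, condensin subunits with TOP2A and MKI67, and the transcription factors FOXM1 and MYBL2. They were chosen by gene symbol, with earlier results of these data known but with no threshold on their values. All 54 were found among the 19775 genes of the array. The cells were MCF10A, a line of human mammary epithelium that forms no tumours, in medium with horse serum, EGF, hydrocortisone, cholera toxin and insulin. The 6 groups differed only in the number of cells plated per 35 mm dish, 50K, 100K, 200K, 400K, 600K or 800K (50K is 50000 cells), with RNA taken after 24 h. Each group was 1 Affymetrix array of total RNA, without replicates, and the sources used here do not give how many dishes an array stands for.

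In a dividing cell the kinase CDK1 with cyclins A and B drives entry into mitosis, Aurora and Polo-like kinases build and correct the spindle, and the spindle checkpoint holds back the anaphase-promoting complex (APC/C) until every kinetochore is attached. Transcription of these genes is known to depend on the MuvB protein core, which joins MYBL2 and then FOXM1 in dividing cells and joins repressive E2F and pocket proteins in resting ones. MuvB binds a short promoter element, the cell cycle genes homology region (CHR), often near CCAAT boxes that bind NF-Y. Epithelial cells in culture slow their division as they become crowded, and messenger RNAs of mitosis are widely used as a sign of how many cells are dividing.

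Each deposited value was a ratio to the 50K array, which is therefore 1 for every gene, and a gene was the mean log2 ratio of its probe sets. Ratios carry no level, so the presence of defining breast epithelial markers could not be checked. The trend was the slope of the log2 ratio per doubling of the cells plated, fitted with limma over all 19775 genes, with Benjamini-Hochberg adjustment over all of them and a threshold of 0.05. Errors after ± are limma's standard errors of the slope over 6 arrays, in which the variance of each gene is drawn towards that of all genes. They measure scatter around a line, not replicate spread. The 3 control probe sets of 18S ribosomal RNA stood lower on each of the 5 other arrays than on 50K, with log2 ratios from −1.02 to −0.44. The 50K array thus stood apart in them, and since every value is a ratio to it, results without it are given below. Since each array holds bulk RNA, fewer cells in G2 and mitosis cannot be told apart from less of these RNAs per dividing cell.

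Messenger RNAs of mitosis were lower in denser cultures. Of the 54 genes, 35 fell with an adjusted p under 0.05 in limma, 0 rose and 19 did not pass, while 12.4% of all genes fell and 8.93% rose. The slope was below 0 for all 54 genes, and for 8191 of all 19775 genes. Its median was −0.22 for the 54, against 0.00448 over all genes. The median ratio of the mitotic genes was 0.959 (100K), 0.911 (200K), 0.829 (400K), 0.672 (600K) and 0.509 (800K). At 800K, 49 of them were at least 1.5-fold below 50K (7.75% of all genes) and 25 at least 2-fold (2.69%). The ratios at 800K ran from 0.231 for AURKB to 0.93 for CCNB2. A sign of RNA quality moved along the same arrays. The 5′ minus 3′ difference of the beta-actin control probe sets, relative to 50K, was 0.024 log2 units (100K), −0.037 (200K), −0.17 (400K), −0.22 (600K) and −0.30 (800K), lower on each denser array from 200K on, while that of GAPDH lay between −0.072 and 0.047. The part of RNA quality in the falls was not tested.

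The count of calls rested on single arrays. It was 9 without the 100K array, 9 without 600K, 15 without 800K and 20 without 50K, beside falling shares over all genes of 8.42%, 7.09%, 6.89% and 8.55%. CDK1, AURKB, BIRC5, CDC20, KIF23, ANLN and NCAPG, 7 genes in all, passed in the full fit and in every fit without 1 array (4.9% of all genes did so). The count was 28 without 200K (11.5%) and 40 without 400K (10.6%), and all 54 slopes were below 0 in each of these 6 fits. Of all 19775 genes, from 7331 (without 100K) to 11617 (without 50K) had a slope below 0. The median slope of the 54 genes was −0.28 without 50K, beside −0.22 with it. Other ways to set up the same test gave 31 genes with the median of the probe sets (11.6% of all genes), 31 with arrays centred on their medians (12.5%), 34 with robust variances (12%), 47 on the rank of the density (13.2%) and 6 with the 3 lowest against the 3 highest densities (6.83%).

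**Figure D1:**
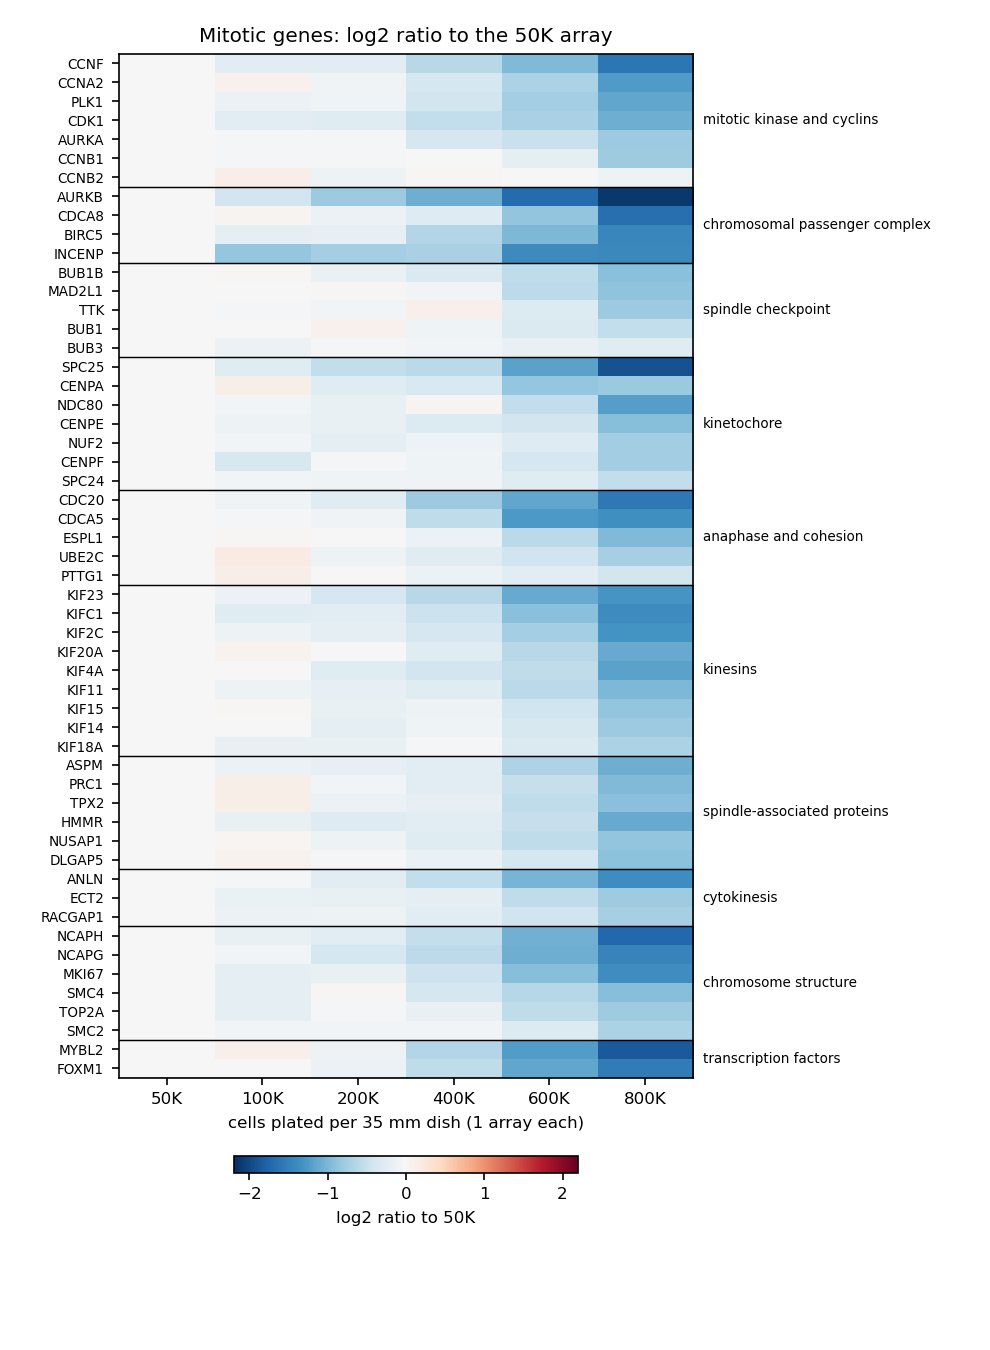
Log2 ratio to the 50K array (colour, white at 0 and blue below) of the 54 mitotic genes (rows, grouped by role and ordered by slope) on the 6 arrays (columns, cells plated per 35 mm dish). Most rows darken from 400K on, and AURKB, SPC25 and MYBL2 are darkest at 800K, with ratios of 0.231, 0.264 and 0.278.

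The decline was not spread evenly over the range. From 50K to 200K, 2 doublings, the median change was −0.13 log2 units, and from 200K to 800K, another 2 doublings, it was −0.84. The upper change was the more negative one for 52 of 54 genes (96.3%, against 60.8% of all genes). The exceptions were INCENP (−0.75 and then −0.67) and CCNB2 (−0.11 and then 0.000825). Between 400K and 600K the ratio went down for all 54 genes (36.5% of all genes), and between 600K and 800K for 53 (63.4% of all genes). At 100K, 17 of the 54 (31.5%) stood above their 50K value, against 65.2% of all genes. The 800K array held the lowest ratio of 52 genes (96.3%, against 19.3% of all genes). A strict order, lower at each higher density, was seen for 17 genes (31.5%, against 3.53%).

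A curve bending downwards was therefore tested as the quadratic term of the fit. It was below 0 for 53 of 54 genes (61.6% of all genes), but limma called 0 genes of the 54 and 0 of all 19775 (0%) after adjustment. At an unadjusted p under 0.05 there were 34 of 54, all of them negative, against 6.8% of all genes with a negative term, and the smallest adjusted p among the 54 was 0.104, for MYBL2. With cell number on its own scale instead of its log2, 50 of the 54 fell (12.8% of all genes), the exceptions being CCNB2, BUB3, TTK and CENPF. The median squared correlation with density was 0.935 on that scale and 0.755 on the log2 scale, and it was higher on the scale of cell number for 53 of the 54 genes (44.6% of all genes).

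**Figure D2:**
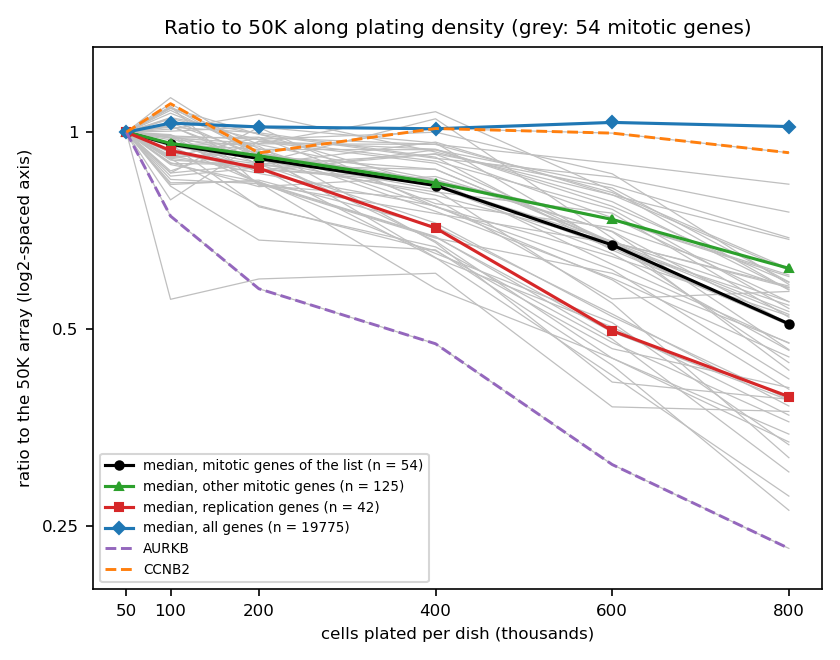
Ratio to the 50K array (vertical axis, log2 spaced) against the number of cells plated per dish (horizontal axis, 50K to 800K), with 1 grey line for each of the 54 mitotic genes and thick lines for medians. The median of the mitotic genes stays near 0.911 at 200K and reaches 0.509 at 800K; AURKB lies lowest and CCNB2 highest of the 54 at 800K.

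**Figure D3:**
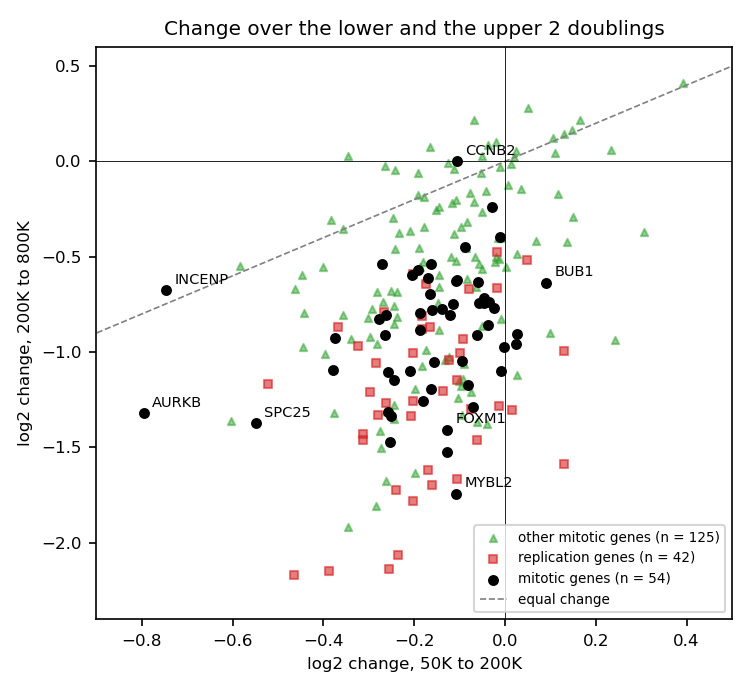
Log2 change from 50K to 200K (horizontal axis) against that from 200K to 800K (vertical axis) for each gene. All but INCENP and CCNB2 of the 54 mitotic genes (black) lie below the dashed line of equal change.

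As most of these genes were lower on the same arrays, promoters are shown for the elements named above. RefSeq start sites (GRCh38.p14) were matched for 46 of the 54 genes, which gave 52 windows of 250 bases before to 50 after a start. The stretches below are the 160 bases before the start, 5′ to 3′ on the strand of the gene, with CHR letters (TTTGAA or TTTAAA) and CCAAT letters on either strand in capitals. They are CDK1 at chr10:60778318-60778477 on the plus strand (1 of its 2 starts), PLK1 at chr16:23678729-23678888 on the plus strand, CCNB2 at chr15:59104986-59105145 on the plus strand, KIF23 at chr15:69414189-69414348 on the plus strand, AURKB at chr17:8210226-8210385 on the minus strand (1 of its 2 starts) and MYBL2 at chr20:43666954-43667113 on the plus strand. CDK1, PLK1 and KIF23 stand for genes that fell and hold both elements, CCNB2 for the gene with the shallowest slope, and AURKB and MYBL2 for the steepest slopes.
CDK1: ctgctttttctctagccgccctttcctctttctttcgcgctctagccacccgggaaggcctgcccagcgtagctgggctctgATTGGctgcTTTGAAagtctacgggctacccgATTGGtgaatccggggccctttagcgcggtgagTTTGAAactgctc
PLK1: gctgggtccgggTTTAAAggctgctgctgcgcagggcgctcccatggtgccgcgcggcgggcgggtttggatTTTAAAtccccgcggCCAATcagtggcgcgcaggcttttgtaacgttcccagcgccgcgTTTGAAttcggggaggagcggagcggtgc
CCNB2: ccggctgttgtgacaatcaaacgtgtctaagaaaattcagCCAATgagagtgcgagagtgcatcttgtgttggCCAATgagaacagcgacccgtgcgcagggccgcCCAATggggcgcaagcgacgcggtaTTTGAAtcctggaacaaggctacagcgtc
KIF23: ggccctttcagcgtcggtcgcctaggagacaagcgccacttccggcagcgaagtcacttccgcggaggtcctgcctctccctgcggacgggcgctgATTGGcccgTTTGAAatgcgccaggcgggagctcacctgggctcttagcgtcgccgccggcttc
AURKB: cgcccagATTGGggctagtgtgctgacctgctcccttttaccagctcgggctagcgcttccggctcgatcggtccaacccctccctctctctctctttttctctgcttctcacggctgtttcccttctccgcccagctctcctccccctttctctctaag
MYBL2: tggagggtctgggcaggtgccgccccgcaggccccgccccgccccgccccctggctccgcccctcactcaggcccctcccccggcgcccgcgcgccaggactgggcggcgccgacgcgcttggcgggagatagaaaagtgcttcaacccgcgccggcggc

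The stretch of CCNB2, whose gene mean moved least, holds 3 CCAAT boxes and 1 stretch of CHR letters. That of AURKB, which moved most, holds 1 and 0, and that of MYBL2 neither. The place of CCNB2 rests on averaging, as 1 of its 3 probe sets reached 0.572 at 800K. Over the 52 windows, TTTGAA occurred in 36 (69.2%), against 15.2% of all 35116 windows of that length, and TTTAAA in 16 (30.8%, against 12.2%). Either of them began within 50 bases of the start in 34 windows (65.4%, against 7.62%). CCAAT occurred in 37 (71.2%, against 34.6%), and a CHR together with CCAAT in 32 (61.5%, against 9.27%). The tandem of GCGG, any 4 bases and TTTGAA, which contains the CHR, was found in CDK1, CENPF, DLGAP5 and NUF2 (7.69% of windows, against 0.105%). Of E2F sites only 3 exact spellings were searched, so other forms of the site were not counted. TTTGGCGC and TTTCGCGC each occurred in 2 windows (3.85%, against 0.652% and 0.515%), as did GGCGGGAA (3.16% of all windows). All were searched on both strands. The median slope was −0.22 for the 40 genes with TTTGAA or TTTAAA in a window. It was −0.32 for the 6 without these letters (AURKB, BUB1, CCNA2, CDCA5, MYBL2 and SPC24), a description of few genes that was not tested. Other spellings of the CHR were not searched, so these 6 genes may still hold the element.

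Among the kinases and cyclins of mitotic entry, 5 of 7 fell: CDK1, CCNA2, CCNF, AURKA and PLK1. CDK1, the kinase that drives mitotic entry, had ratios of 0.847 (100K), 0.834 (200K), 0.689 (400K), 0.608 (600K) and 0.476 (800K), with a slope of −0.23 ± 0.035 (adjusted p = 0.00812, limma). Its order was the strict one, and it fell in all 6 fits without 1 array. PLK1, the Polo-like kinase of spindle assembly and mitotic exit, was at 0.914 (100K), 0.937 (200K), 0.757 (400K), 0.598 (600K) and 0.453 (800K) (slope −0.25 ± 0.055, adjusted p = 0.0242). For AURKA, the Aurora kinase of spindle poles, the ratios were 0.98 (100K), 0.983 (200K), 0.777 (400K), 0.714 (600K) and 0.578 (800K) (slope −0.19 ± 0.039, adjusted p = 0.0221). Both stayed above 0.9 of their 50K value up to 200K.

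CCNF, an F-box protein that marks proteins for degradation in G2, was the steepest of the group, with 0.837 (100K), 0.84 (200K), 0.652 (400K), 0.511 (600K) and 0.333 (800K) (slope −0.34 ± 0.067, adjusted p = 0.0186). CCNA2, cyclin A, ended at 0.419 (slope −0.29 ± 0.068, adjusted p = 0.0311). The B cyclins, the partners of CDK1 in mitosis, did not pass. CCNB1 stood at 0.987 (100K), 0.975 (200K), 1.00 (400K), 0.864 (600K) and 0.585 (800K) (slope −0.13 ± 0.06, adjusted p = 0.201). This mean was close to its 50K value up to 400K and lower on the 600K and 800K arrays, a shape that neither of its probe sets had alone. Of these, 1 was lower on each denser array, with 0.801 at 400K and 0.439 at 800K. The other was at 1.10 (200K), 1.25 (400K), 1.12 (600K) and 0.78 (800K). CCNB2 stood at 1.11 (100K), 0.93 (200K), 1.01 (400K), 0.997 (600K) and 0.93 (800K) (slope −0.027 ± 0.024, adjusted p = 0.546), the shallowest slope of all 54 genes. Both values are means of probe sets that disagreed. For CCNB1, 1 probe set had a slope of −0.25 and the other −0.017, and for CCNB2 the slopes were −0.17, −0.02 and 0.11, none past the threshold when tested alone.

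The chromosomal passenger complex, which corrects kinetochore attachment and directs cytokinesis, was among the role groups with the lowest ratios. Of its 4 subunits 3 fell, and the median ratio at 800K was 0.343. The kinase subunit AURKB had ratios of 0.744 (100K), 0.576 (200K), 0.475 (400K), 0.31 (600K) and 0.231 (800K), with the steepest slope of the 54 genes, −0.49 ± 0.05 (adjusted p = 0.00286). Its ratio was already low at 100K and went down at each step. INCENP, the scaffold that activates AURKB, was at 0.555 (100K), 0.596 (200K), 0.608 (400K), 0.38 (600K) and 0.374 (800K) (slope −0.29 ± 0.068, adjusted p = 0.0286). Its values were close to each other from 100K to 400K and again at 600K and 800K, and its call was lost in the fit without 50K (adjusted p = 0.224), as in those without 600K (0.089) and 800K (0.103). BIRC5 (survivin), the subunit that brings the complex to centromeres, ended at 0.369 (slope −0.33 ± 0.059), and CDCA8 (borealin) at 0.318 (slope −0.35 ± 0.10, adjusted p = 0.053), just outside the threshold.

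Of the 5 spindle checkpoint genes only BUB1B fell. BUB1B, which encodes the inhibitor BUBR1 of the APC/C, had ratios of 1.02 (100K), 0.908 (200K), 0.801 (400K), 0.679 (600K) and 0.532 (800K) (slope −0.21 ± 0.043, adjusted p = 0.0195). MAD2L1, the checkpoint protein that binds CDC20, ended at 0.544 (slope −0.19 ± 0.064, adjusted p = 0.0882), the kinase TTK at 0.574 (−0.14 ± 0.068, adjusted p = 0.234) and the kinase BUB1 at 0.685 (−0.12 ± 0.041, adjusted p = 0.0886). BUB3, which carries BUB1 and BUBR1 to kinetochores, moved least, with 0.917 (100K), 0.981 (200K), 0.958 (400K), 0.896 (600K) and 0.833 (800K) (slope −0.045 ± 0.021, adjusted p = 0.2). On the scale of cell number BUB1, BUB1B and MAD2L1 fell, 3 of 5.

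Of 7 kinetochore genes, 3 fell: SPC25, CENPA and CENPE. SPC25, a subunit of the NDC80 complex that ties microtubules to the centromere, was at 0.827 (100K), 0.684 (200K), 0.661 (400K), 0.44 (600K) and 0.264 (800K) (slope −0.40 ± 0.081, adjusted p = 0.0196). Its partner SPC24 was at 0.959 (100K), 0.941 (200K), 0.94 (400K), 0.83 (600K) and 0.689 (800K) (slope −0.10 ± 0.033, adjusted p = 0.0763), the shallowest of the group, and the microtubule-binding subunits NDC80 and NUF2 ended at 0.432 and 0.59 (adjusted p = 0.167 and 0.102). So 1 of the 4 subunits of this complex fell past the threshold on the log2 scale. On the scale of cell number all 4 did, with adjusted p from 0.002 (SPC25) to 0.0344 (NDC80, limma). Of the 2 probe sets of SPC24, 1 reached 0.473 at 800K and the other 1.01. The centromeric histone CENPA ended at 0.571 (slope −0.24 ± 0.045), the kinetochore motor CENPE at 0.521 (−0.18 ± 0.048), and the large kinetochore protein CENPF at 0.589 (−0.12 ± 0.059, adjusted p = 0.237).

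Genes of anaphase onset and sister cohesion fell in 4 of 5 cases. CDC20, the activator of the APC/C, had ratios of 0.952 (100K), 0.836 (200K), 0.576 (400K), 0.451 (600K) and 0.336 (800K) (slope −0.39 ± 0.057, adjusted p = 0.00755), lower at every step. CDCA5 (sororin), which protects cohesin, ended at 0.39 (slope −0.36 ± 0.073), and UBE2C, the ubiquitin-conjugating enzyme of the APC/C, at 0.601 (−0.19 ± 0.042). PTTG1 (securin), the inhibitor of separase, was at 1.09 (100K), 0.992 (200K), 0.912 (400K), 0.854 (600K) and 0.755 (800K) (slope −0.10 ± 0.028, adjusted p = 0.0471), the shallowest slope among the genes that fell. ESPL1, separase itself, ended at 0.509 (slope −0.22 ± 0.065, adjusted p = 0.0656).

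Of 9 mitotic kinesins, the motors that slide, bundle and shorten spindle microtubules, 6 fell on the log2 scale and all 9 on the scale of cell number. KIF23, the motor of the central spindle, was steepest, with 0.91 (100K), 0.772 (200K), 0.659 (400K), 0.466 (600K) and 0.407 (800K) (slope −0.32 ± 0.042, adjusted p = 0.00557). KIFC1, the minus-end motor, ended at 0.381, the microtubule depolymerase KIF2C at 0.404, the chromosome-bound KIF4A at 0.444, KIF20A of the central spindle at 0.464 and KIF11, the motor that separates the poles, at 0.507. Those that did not pass were KIF15, KIF14 and KIF18A, with ratios of 0.55, 0.574 and 0.615 at 800K and adjusted p = 0.0645, 0.0869 and 0.147. KIF18A, which limits chromosome oscillation, was shallowest, with 0.895 (100K), 0.893 (200K), 0.966 (400K), 0.802 (600K) and 0.615 (800K) (slope −0.12 ± 0.048).

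The gene means of the spindle-associated proteins lay close together. Slopes of the 6 genes lay between −0.22 and −0.19 and ratios at 800K between 0.465 and 0.55, and TPX2, NUSAP1, PRC1 and ASPM fell. Single probe sets of ASPM (−0.34, −0.24 and −0.098) and of NUSAP1 (−0.26 and −0.14) were spread wider than these means. Those of HMMR were at −0.22 and −0.19, and TPX2, PRC1 and DLGAP5 had 1 each. ASPM, a spindle pole protein, was at 0.912 (100K), 0.878 (200K), 0.845 (400K), 0.628 (600K) and 0.475 (800K) (slope −0.22 ± 0.056, adjusted p = 0.0374). DLGAP5, which stabilises kinetochore fibres, was at 1.05 (100K), 0.974 (200K), 0.903 (400K), 0.762 (600K) and 0.537 (800K) (slope −0.19 ± 0.058, adjusted p = 0.0722). The Aurora A activator TPX2 ended at 0.526, the microtubule bundlers NUSAP1 and PRC1 at 0.55 and 0.51, and HMMR at 0.465 (adjusted p = 0.0641). None of the 6 passed without 100K, 600K or 800K.

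All 3 cytokinesis genes fell. ANLN (anillin), the scaffold of the contractile ring, was at 0.983 (100K), 0.837 (200K), 0.691 (400K), 0.495 (600K) and 0.389 (800K) (slope −0.33 ± 0.056, adjusted p = 0.0113). RACGAP1, the partner of KIF23 in centralspindlin, was at 0.917 (100K), 0.929 (200K), 0.843 (400K), 0.736 (600K) and 0.605 (800K) (slope −0.15 ± 0.035, adjusted p = 0.0285), and ECT2, the exchange factor that activates RhoA at the cell equator, ended at 0.582 (slope −0.17 ± 0.04). ANLN had the lowest ratio of the group at 800K, and its ratio was lower at each step.

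Among proteins that shape or coat mitotic chromosomes, 4 of 6 fell. MKI67, the Ki-67 protein used as a marker of dividing cells, had ratios of 0.866 (100K), 0.893 (200K), 0.726 (400K), 0.522 (600K) and 0.39 (800K) (slope −0.30 ± 0.064, adjusted p = 0.0224). TOP2A, the topoisomerase that disentangles sister chromatids and another common marker, had 0.872 (100K), 0.968 (200K), 0.896 (400K), 0.679 (600K) and 0.579 (800K) (slope −0.16 ± 0.05, adjusted p = 0.0709), and did not pass. Of its 3 probe sets, 1 passed when tested alone (slope −0.19, adjusted p = 0.0486, limma), and those with slopes of −0.097 and −0.20 did not. NCAPH, the subunit that closes the condensin I ring, was at 0.892 (100K), 0.839 (200K), 0.692 (400K), 0.482 (600K) and 0.302 (800K) (slope −0.37 ± 0.081, adjusted p = 0.0244). The condensin core protein SMC2 was shallowest, with 0.958 (100K), 0.96 (200K), 0.958 (400K), 0.808 (600K) and 0.618 (800K) (slope −0.13 ± 0.047, adjusted p = 0.113). NCAPG, another subunit of condensin I, ended at 0.36 (slope −0.35 ± 0.055) and the core protein SMC4 at 0.523 (−0.21 ± 0.053).

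Both transcription factors of the programme fell and had the lowest median ratio at 800K of the role groups, 0.311. MYBL2 was at 1.08 (100K), 0.928 (200K), 0.643 (400K), 0.424 (600K) and 0.278 (800K) (slope −0.45 ± 0.095, adjusted p = 0.0219). FOXM1 was at 0.988 (100K), 0.915 (200K), 0.681 (400K), 0.451 (600K) and 0.345 (800K) (slope −0.37 ± 0.074, adjusted p = 0.0183). They stayed above 0.9 up to 200K and changed most over the upper 2 doublings, by −1.74 and −1.41 log2 units. Without 100K, 600K or 800K neither passed, with adjusted p between 0.059 and 0.0757.

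**Figure D4:**
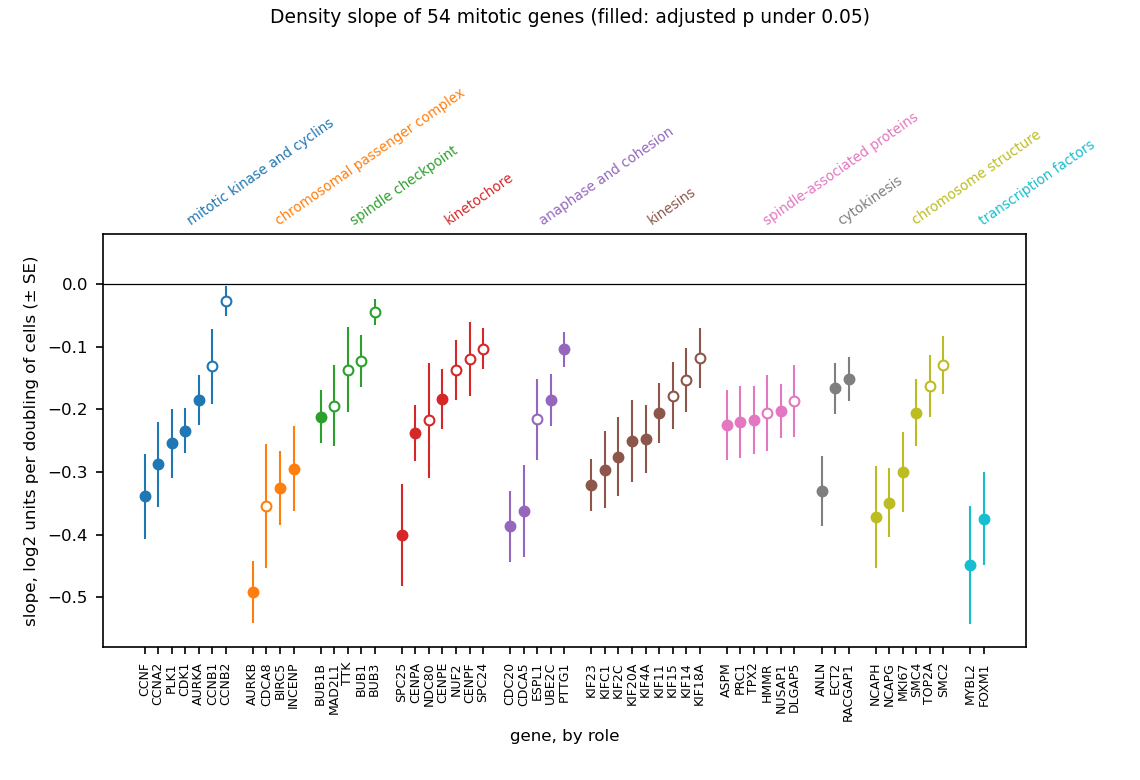
Slope of the log2 ratio per doubling of cells plated (vertical axis, points with standard errors over 6 arrays) for each of the 54 genes (horizontal axis, grouped by role); filled points passed the threshold. All points lie below 0, from −0.49 for AURKB to −0.027 for CCNB2.

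Partners in 1 complex and close relatives were compared in 9 pairs, which were chosen after the values were seen. The p-values given for the pairs do not allow for that choice. The slope of the log2 ratio of 1 gene over the other was tested by a two-sided exact permutation over all 720 orders of the arrays, whose smallest possible p is 0.00278, with Benjamini-Hochberg adjustment over the 9 pairs and intervals from the scatter around the line. The slope of AURKB was below that of AURKA, with a difference of −0.31 (95% interval −0.42 to −0.19), exact p = 0.00417 and adjusted p = 0.0219, and the ratio of AURKB was the lower one on all 5 arrays above 50K. SPC25 minus SPC24 gave −0.30 (95% interval −0.47 to −0.13), exact p = 0.00833, and KIF23 minus RACGAP1 −0.17 (95% interval −0.24 to −0.094), exact p = 0.00694, each lower on 5 of 5 arrays and each with adjusted p = 0.0219. BUB1B minus the gene mean of BUB1 gave −0.089 (95% interval −0.14 to −0.036), exact p = 0.00972 and adjusted p = 0.0219, lower on 4 of 5 arrays. That order rests on how BUB1 is averaged: of its 5 probe sets, 2 had slopes of −0.29 and −0.33, steeper than BUB1B. The means of AURKA and SPC24 also include a flat probe set each, and their steeper ones, at −0.27 and −0.21, still lay above the slopes of AURKB and SPC25.

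The other 5 pairs did not pass. CCNB2 minus CCNB1 gave 0.10 (95% interval −0.087 to 0.29), adjusted exact p = 0.259, and turned sign when probe sets that can bind other transcripts were dropped. NUF2 minus NDC80 gave 0.081 (95% interval −0.087 to 0.25), adjusted exact p = 0.287. SMC4 minus SMC2 gave −0.076 (95% interval −0.18 to 0.032) and ESPL1 minus PTTG1 −0.11 (95% interval −0.26 to 0.04), both with adjusted exact p = 0.21. NCAPH minus NCAPG gave −0.024 (95% interval −0.14 to 0.092), adjusted exact p = 0.615, an interval that still allows a difference of 0.14 per doubling.

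Where a gene had several probe sets, they often agreed in sign but not in size. The 54 genes were measured by 102 probe sets, 1 each for 27 genes. Of these 102, 97 had a slope below 0, a count not made over all probe sets. Tested alone, 46 fell, against 10.1% of all single-symbol probe sets. Of the 27 genes with several, 23 had all slopes below 0, and the others were BUB1, BUB3, CCNB2 and SPC24. In BUB1, 3 probe sets had slopes of −0.026, −0.0029 and 0.034, beside the 2 that fell. AURKA had 2 probe sets at −0.27 and −0.27 and 1 at −0.011, and in BUB3 1 of 6 fell (−0.19) while the others lay between −0.089 and 0.018. The gene means of these genes are therefore nearer to 0 than their steeper probe sets. Without the probe sets that Affymetrix marks as able to bind several transcripts (_x_at, _s_at), 21 of 43 genes still measured fell (8.81% of all genes). CDCA8, CENPA, CDC20, PTTG1, KIF18A, KIFC1, TPX2, PRC1, RACGAP1, MKI67 and FOXM1 had only such probe sets, so they could not be checked in this way. All of these but CDCA8 and KIF18A fell in the main fit. AURKA, with −0.011, CDK1, with −0.16, ECT2, with −0.061, and CCNB1, with −0.017, were among those with slopes nearer to 0 than with all probe sets. Of the genes that fell with all probe sets and were still measured, 5 lost their call: AURKA (adjusted p = 0.927, limma), ECT2 (0.275), SMC4 (0.105), KIF20A (0.0593) and CENPE (0.0578), the slopes of KIF20A and CENPE being the same as before.

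**Figure D5:**
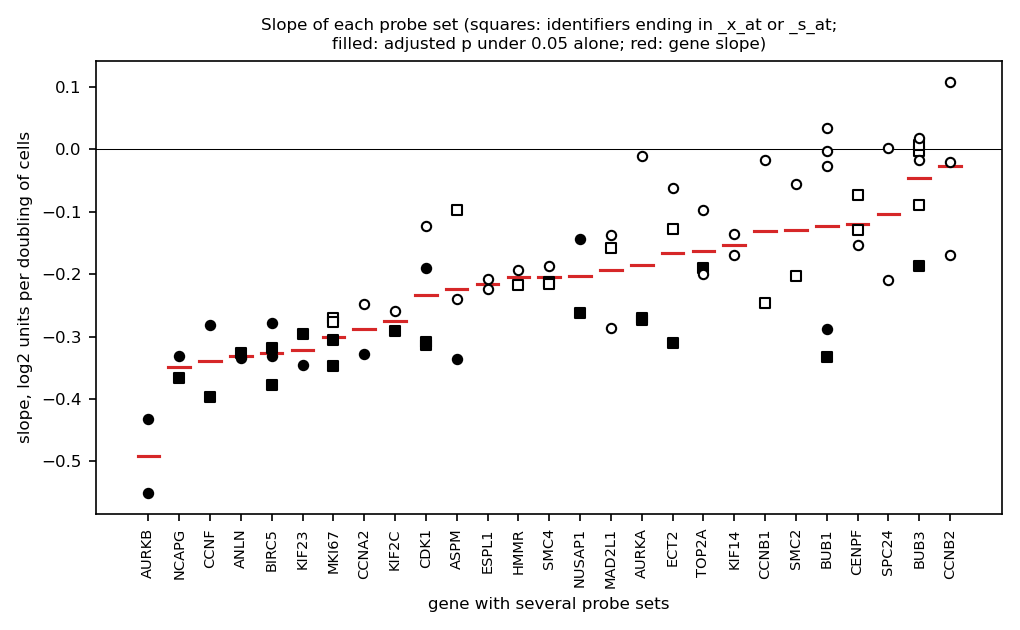
Slope of each probe set (points) and of the gene mean (red bars) for the 27 genes with several probe sets; squares mark identifiers ending in _x_at or _s_at and filled points passed alone. Probe sets of AURKA, BUB1, BUB3 and CCNB1 include points near 0 beside steeper ones.

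The rest of the mitotic machinery, 130 further genes listed by complex of which 125 were measured, split by role. Over all of them 77 fell (61.6%, against 12.4% of all genes) and 5 of 125 rose (against 8.93% of all genes). Their median slope was −0.16. Falls were frequent for the outer kinetochore and checkpoint (16 of 18), the inner kinetochore and centromere (12 of 15), the other condensin subunits (4 of 4), the APC/C regulators (3 of 3) and regulators of entry and exit (13 of 19). They were fewer for the APC/C subunits themselves (4 of 12, median ratio 0.829 at 800K), cohesin and its loaders (3 of 10, 0.839), the MuvB core (2 of 5, 0.805) and other spindle proteins and kinesins (7 of 17). Of gamma-tubulin and augmin genes 9 of 14 fell, and of other cytokinesis genes 4 of 8. The count of 77 became 44 without 100K (8.42% of all genes), 42 without 600K (7.09%) and 44 without 800K (6.89%). These groups are small and their differences were not tested.

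The steepest of these further genes was CDC25A, the phosphatase that activates cyclin-dependent kinases, with 0.835 (100K), 0.787 (200K), 0.35 (400K), 0.202 (600K) and 0.208 (800K) (slope −0.63 ± 0.092, adjusted p = 0.00726). Its ratio was lowest at 600K and 800K. SKA3, of the kinetochore complex that follows microtubule ends, reached 0.234 (slope −0.48 ± 0.10) at 800K, and OIP5 and HJURP, which load CENPA, 0.256 (slope −0.47 ± 0.05) and 0.309 (slope −0.40 ± 0.069). The checkpoint protein ZWILCH reached 0.292 (slope −0.43 ± 0.071), the centromere protein CENPM 0.28 (slope −0.42 ± 0.085), the CDK1-inhibiting kinase PKMYT1 0.261 (slope −0.44 ± 0.10) and CDCA3 0.331 (slope −0.39 ± 0.062). The calls of SKA3, CENPM and PKMYT1 were lost without some arrays, with adjusted p up to 0.0777. In the other direction CDC25B, a relative of CDC25A that acts at mitotic entry, rose, with 1.23 (100K), 1.31 (200K), 1.58 (400K), 1.85 (600K) and 1.74 (800K) (slope 0.21 ± 0.021, adjusted p = 0.00264, and called in all 6 fits without 1 array). STAG2 of cohesin rose to 1.26 (slope 0.10 ± 0.02), TUBGCP6 of the gamma-tubulin complex to 1.31 (slope 0.083 ± 0.018), SEPTIN9 to 1.21 (slope 0.078 ± 0.012) and ENSA, an inhibitor of the phosphatase PP2A, to 1.24 (slope 0.073 ± 0.011). Of these STAG2 lost its call without some arrays, TUBGCP6 in 4 of the 6 fits and ENSA in 1, with adjusted p up to 0.0949. Without probe sets marked _x_at or _s_at the slope of TUBGCP6 was 0.0038 and its call was lost.

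The genes nearest in the cell cycle are those of DNA replication, which act in S phase, before mitosis. Of 42 measured, 36 fell (85.7%, against 12.4% of all genes) and 0 rose (against 8.93%). The falling count was 13 without 100K (8.42% of all genes), 14 without 600K (7.09%) and 16 without 800K (6.89%). The median ratio was 0.713 at 400K, 0.497 at 600K and 0.394 at 800K, against 0.829, 0.672 and 0.509 for the mitotic genes. Their median slope was −0.32 against −0.22. Between 200K and 400K the median step was −0.34 log2 units for replication and −0.15 for mitosis, and between 600K and 800K −0.37 and −0.40. The lists were compared on the same 6 arrays and no test of their difference was made. CCNE2, a cyclin of S phase entry, and RRM2, a ribonucleotide reductase subunit, were the steepest, at 0.172 and 0.161 at 800K.

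The median of the 12 spiked poly-A control probe sets lay between −0.48 and −0.17 log2 units on the 5 other arrays relative to 50K. The median ratio over all probe sets but the controls was 1.01 to 1.04. Of 18 measured markers of cell types, KRT5, KRT14, CDH1, DCN, PECAM1 and CD14 rose (8.93% of all genes), 0 fell (12.4%), and the other 12 did not pass. The calls of DCN and PECAM1 held in only 1 and 2 of the 6 fits without 1 array, those of KRT5, KRT14, CDH1 and CD14 in all 6. Without probe sets marked _x_at or _s_at the slope of DCN was −0.0021 (adjusted p = 0.955, limma). Among the 14 of fibroblasts, endothelium and leukocytes, ratios at 800K were between 0.907 and 1.41 except for CD14 (5.66). Their part in the result was not tested.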

How the data were processed

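Per the labels' protocols, biotin-labelled copies of total RNA were measured on the Affymetrix HG-U133 Plus 2 array. Per the submitters' processing notes the values come from RMA, which corrects background, normalizes between arrays and summarises probes. The deposited values are linear ratios to the 50K array: all 54675 values of its column equal 1 within 1e-06. The step that made the ratios, and the intensities behind them, are not stated there or in the labels, and the distance of a signal from background is unknown.

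Probe sets with 1 symbol in GEO's platform annotation (41091, leaving out 62 controls) were averaged per gene as log2 ratios, with no filter on low values, giving 19775 genes. Slopes and quadratic terms came from limma 3.58.1 under R 4.3.3 (lmFit and eBayes). The residual degrees of freedom were 4 and 3 before eBayes drew the variances together. In a test on simulated data over 19775 genes, 77% of 100 genes changed 2-fold over the range were recovered by the slope. Exact permutations were run in Python 3.11.15.

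The list, the role groups, the further mitotic genes, replication genes and markers were chosen with earlier results of these data known. All listed genes are named. Values on every array are given for 10 central genes, for the steepest and shallowest of each role group, for the steepest further gene and for the further gene that rose most; of the further genes, the 8 steepest falling and up to 6 rising are named. Of the further genes, 5 were not analysed here, nor were 1 replication gene and 3 markers. Alternatives were other probe set rules, array centring, other density scales, 3 lowest against 3 highest densities, robust variances and leaving out each array. Testing each probe set alone, the pairs and the promoter stretches shown were chosen after the data were seen.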

Additional observations from a re-analysis of the deposited data

How the results depend on the processing

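With 1 array per density the precision is limited by the number of arrays, and without intensities the depth of a fall near background is unknown. Of the 54 mitotic genes 35 fell. The count was 21 without probe sets marked _x_at or _s_at, where fewer genes were measured, and 6 with the 3 lowest against the 3 highest densities; it ranged from 9 to 40 with 1 array left out. It was 31 with the median of the probe sets, 31 with centred arrays, 34 with robust variances, 50 on the scale of cell number and 47 on that of rank. Over all genes the calls numbered 4220, 2664 without probe sets marked _x_at or _s_at, 2259 for 3 against 3, and 2388 to 3909 with 1 array left out. Of the further mitotic genes 77 fell, 47 and 30 under those 2 settings and 42 to 76 with 1 array left out; 5 rose, 3 for 3 against 3 and 2 to 5 with 1 array left out. The median slope ranged from −0.28 to −0.15 with 1 array left out. At a limit of 2-fold, 25 of 54 were lower at 800K. Curvature gave 0 calls among the 54 under every setting run. Slopes turned sign for CCNB2 with the median of the probe sets (0.0026), and without probe sets marked _x_at or _s_at for BUB3 (0.00018) and, of the further mitotic genes, for the microtubule regulator STMN1 (0.049), ANAPC13 (0.0054) and LIN37 (0.0046), and for CCNB2 minus CCNB1 (−0.011). NCAPH minus NCAPG ranged from −0.039 to 0.022 with 1 array left out, turning sign without 800K (0.022). Under settings that kept all 125 further genes, 106 to 111 had a slope below 0, so others near 0 turned too. The causes were not tested. No paired analysis was possible because each density has 1 array and the labels number no replicates.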
